A study of Mus musculus with 17 samples.

Results

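The trophoblast genes described here are 8 genes chosen by symbol from the 28670 genes of each deposited table: the transcription factor genes Cdx2, Eomes, Elf5, Tfap2c, Gata2, Gata3 and Hand1, and the placental gene Plac1. All 8 were present in the tables, and all 8 passed the filter of 10 fragments in at least 2 of the 17 samples. Elf5 reached 10 fragments only in Nanog-null samples, and outside them Cdx2 did so only in WT iPSC 1. These genes thus passed only with the samples in which they are high. Trophoblast is the first lineage to separate from the inner cell mass of the embryo, and it forms the placenta. Cdx2 and the GATA factors are known for opening this programme, Eomes, Elf5 and Tfap2c for keeping trophoblast stem cells dividing, and Hand1 for driving the giant cell branch. Embryonic stem cells normally keep most of these genes silent, and Nanog is one of the transcription factors of the pluripotent state.

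The series asks, by its title, whether the canonical reprogramming factors can make induced pluripotent stem cells (iPSC) without Nanog. RNA-seq was done on mouse wild-type (WT) embryonic stem cells (ESC, 4 samples), WT iPSC (3), WT partially reprogrammed cells (piPSC, 2, a single clone), Nanog -/- ESC (2), Nanog -/- iPSC clone G2 (2), Nanog -/- iPSC clone G5 (2) and WT embryonic fibroblasts (MEF, 2). Batch AC holds 11 libraries of 129/B6 (v6.5) cells, and batch JI holds 6 libraries of c57/b6 cells, so batch and strain cannot be told apart. WT ESC 1 and 2, WT iPSC 1, both piPSC samples and all 6 Nanog-null samples are AC, and the others are JI. Passage was 10 to 15 for WT ESC and the JI samples of WT iPSC, 2 for MEF and 6 for the rest, so Nanog-null ESC and WT ESC differ in passage as well as genotype. Nanog-null fibroblasts were sorted by GFP from chimeric embryos and received the reprogramming genes Oct4, Sox2 and Klf4, and in some cases c-Myc, by retrovirus. The resulting colonies were kept on feeder cells in 2i and LIF, and the parental Nanog-null ESC were grown in the same way. Each of G2 and G5 is 1 clone, and the labels do not tie replicates to separate cultures. The p-values therefore cover only the spread among these libraries, which may be technical.

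Depth ran from 7.80 to 43.5 M assigned fragments per sample, and 11737 to 12680 genes reached 1 FPKM (fragments per kilobase of transcript, scaled for depth). Nanog RNA was 270 to 762 FPKM in WT ESC and WT iPSC and 27.2 to 49.5 FPKM in the Nanog-null samples, a level that does not show which part of the gene was deleted. In bulk RNA from these cultures, fewer cells of a type and less RNA per cell cannot be told apart.

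The 4 members that rose in both Nanog-null ESC and Nanog-null iPSC and whose Nanog-null samples all lay above all WT ESC and WT iPSC samples were Gata2, Plac1, Cdx2 and Gata3. The share of all genes that separate in this way was not counted, so this number has no background to be read against. Windows upstream of the transcription start were matched for 6 of the 8 members, and none was found for Hand1 and Tfap2c. Shown here because these genes moved together are 250 bases ending 1 base before a start, from RefSeq's GRCm38.p6 table, written 5′ to 3′ on the strand of the gene, with matches to 6 motifs in capitals (AGATAA for GATA factors, AGGAAG for ETS, GCCNNNGGC for AP-2, TTTATG for CDX, GGAATG for TEAD and GGTGTG for T-box, on both strands).
Cdx2 (GRCm38.p6, chr5:147307250-147307499, minus strand): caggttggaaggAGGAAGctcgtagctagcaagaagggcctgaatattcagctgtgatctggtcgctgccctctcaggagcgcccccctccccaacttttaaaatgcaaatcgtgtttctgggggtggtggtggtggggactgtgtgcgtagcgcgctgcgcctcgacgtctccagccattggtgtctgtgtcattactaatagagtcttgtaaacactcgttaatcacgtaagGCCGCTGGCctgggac
Gata2 (GRCm38.p6, chr6:88198414-88198663, plus strand): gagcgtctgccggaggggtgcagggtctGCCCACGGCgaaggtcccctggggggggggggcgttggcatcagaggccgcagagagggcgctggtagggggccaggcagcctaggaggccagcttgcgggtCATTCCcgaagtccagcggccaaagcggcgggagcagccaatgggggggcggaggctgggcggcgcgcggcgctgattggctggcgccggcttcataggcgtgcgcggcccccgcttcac
Gata3 (GRCm38.p6, chr2:9878601-9878850, minus strand): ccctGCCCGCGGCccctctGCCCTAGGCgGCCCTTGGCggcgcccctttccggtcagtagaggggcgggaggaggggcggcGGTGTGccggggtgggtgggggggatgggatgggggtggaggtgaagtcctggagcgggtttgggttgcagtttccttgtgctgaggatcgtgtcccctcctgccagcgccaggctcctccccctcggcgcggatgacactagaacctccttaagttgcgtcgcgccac
Plac1 (GRCm38.p6, chrX:53240111-53240360, minus strand): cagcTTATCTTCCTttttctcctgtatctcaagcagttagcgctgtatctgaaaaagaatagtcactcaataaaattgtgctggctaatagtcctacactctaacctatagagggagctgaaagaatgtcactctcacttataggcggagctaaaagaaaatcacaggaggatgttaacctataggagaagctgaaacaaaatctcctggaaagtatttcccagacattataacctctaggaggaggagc
All 4 of these windows held matches to some of the 6 motifs. E-boxes (CANNTG), which 66.2% of all windows hold, were also searched, and the Cdx2 window holds 1, left in lower case. An AP-2 match stood in the Cdx2 window, in the second Gata2 window and 3 times in the Gata3 window, and 13.7% of all 32851 windows of the same length hold one. The GATA match in the first Plac1 window overlaps its ETS match, and 9.99% and 29.5% of all windows hold those motifs. The second Gata2 window also holds a TEAD match (12.6% of all windows) and the Gata3 window a T-box match (16.3%), whereas the Cdx2 window also holds an ETS match. Neither a CDX match (10.8% of all windows) nor a GATA match other than that of Plac1 was found in the 4 windows. The first Gata2 window and the second Plac1 window held no match to these 6 motifs and are not printed, so the windows shown for these genes are those with matches. The tables give no information on binding at these sequences.

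Compared with WT ESC, Nanog-null ESC had higher RNA of Gata2, Gata3, Cdx2, Plac1 and Hand1 and lower RNA of Eomes, and the changes of Elf5 and Tfap2c did not pass the test. Of the 8 members 5 were called higher, where 31.1% of the 17587 genes tested were, and 1 was called lower, where 26% were (edgeR's quasi-likelihood test, adjusted p under 0.05). The median log2 change of the members was 3.36, and that of all genes 0.05. In Nanog-null iPSC, taken as the average of the clones, 6 members were called higher (28.4% of all genes) and 1 lower (31.1%) relative to WT iPSC. There the median log2 change was 4.20, against -0.04 over all genes. Cdx2 is among the members called higher in both comparisons and Elf5 in iPSC, and both passed the filter only with the Nanog-null samples. In either direction 57% and 59.5% of all genes were called in the 2 comparisons, so the number of members called is to be read against a high background. The counts of the gene lists given further on are to be read beside the same shares.

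**Figure D1:**
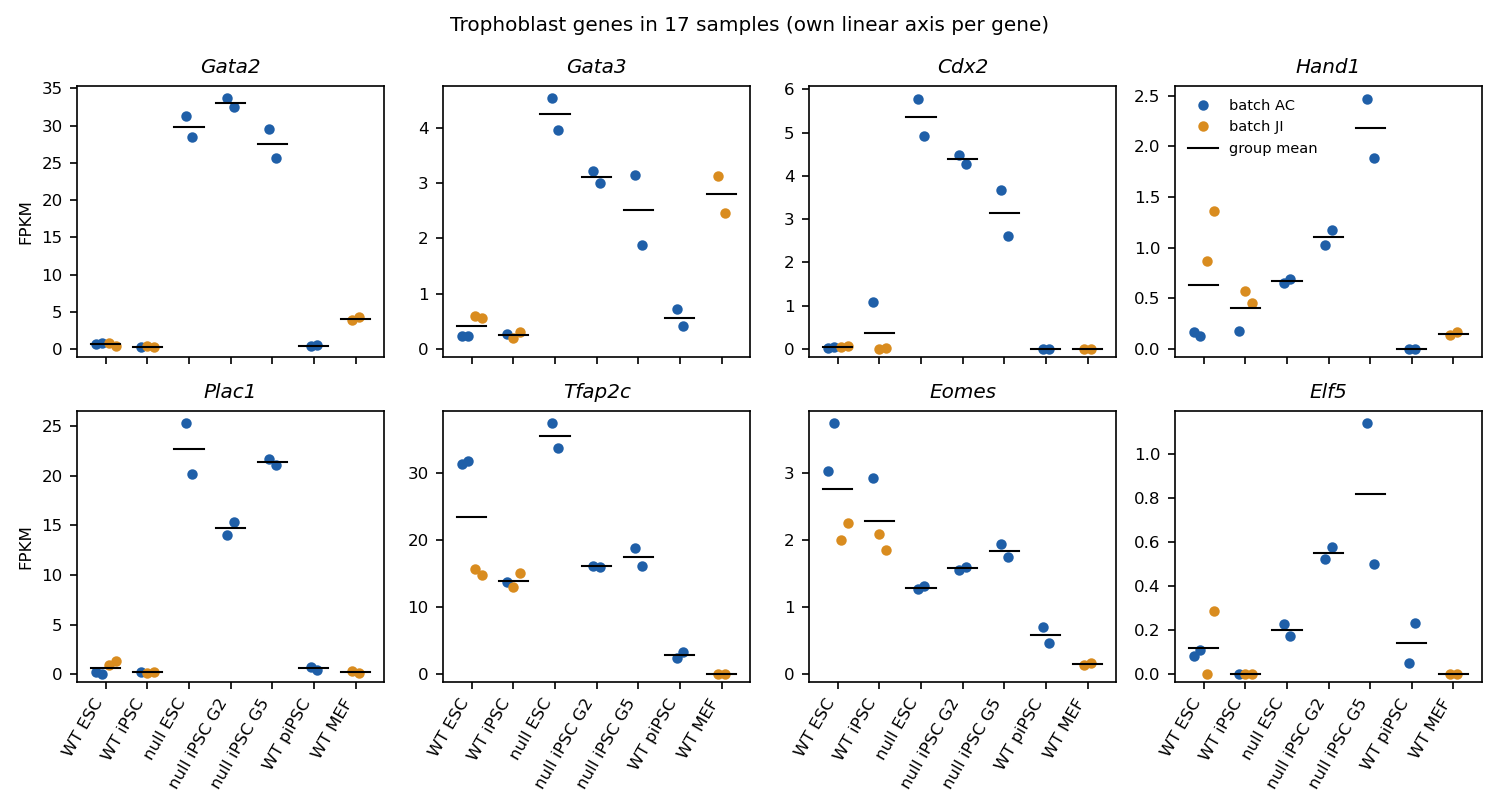
FPKM of each of the 8 genes in each of 17 samples (points, blue for batch AC and orange for batch JI), with the mean of each group as a line and a separate linear axis for each gene. Gata2, Cdx2 and Plac1 stand high in all 6 Nanog-null samples, whereas Tfap2c and Eomes do not follow that pattern.

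Gata2 encodes a zinc finger factor that acts on genes of trophoblast stem cells and giant cells. It was at 31.3 and 28.5 FPKM in Nanog-null ESC, at 33.7 and 32.6 in clone G2 and at 29.5 and 25.7 in clone G5. WT ESC 1 to 4 had 0.695, 0.814, 0.764 and 0.409 FPKM, and WT iPSC 1 to 3 had 0.349, 0.379 and 0.291 (12 to 34 fragments each). None of the Nanog-null samples came near the WT ESC or WT iPSC samples, and the 3 Nanog-null lines lay close to each other. The log2 change was 5.36 ± 0.15 (SE, adjusted p = 1.2e-12) in ESC and 6.37 ± 0.20 (adjusted p = 2.7e-12) in iPSC by edgeR. Within batch AC alone, scaled fragments were 39.8-fold higher in Nanog-null ESC than in WT ESC (exact 95% interval 33.4 to 47.9, counting error only), and 88.9-fold higher in Nanog-null iPSC than in WT iPSC 1 (63.6 to 128). Such intervals, here and for the other members, pool the samples of a group, G2 with G5 included. They leave out the spread among libraries and clones.

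Gata3 is the paralog of Gata2 in the trophectoderm and is known to act beside Cdx2. Its level was lower than that of Gata2 in FPKM, at 4.54 and 3.95 FPKM in Nanog-null ESC, 3.22 and 2.996 in G2 and 3.14 and 1.88 in G5. WT ESC had 0.232, 0.242, 0.602 and 0.562 FPKM, from 12, 12, 17 and 9 fragments. WT iPSC had 0.271, 0.199 and 0.311 FPKM, from 25, 5 and 23 fragments. The Nanog-null samples all lay above the WT ESC and WT iPSC samples, but not above WT MEF, which had 3.13 and 2.47 FPKM. Gata3 changed by 4.23 ± 0.33 on the log2 scale (adjusted p = 3.3e-08) in ESC and 3.74 ± 0.36 (adjusted p = 3.2e-07) in iPSC by edgeR. Within batch AC the ratios of scaled fragments were 24.6 (exact 95% interval 16.4 to 38.6) and 9.50 (6.39 to 14.8), the latter against WT iPSC 1 alone. These intervals cover counting error only.

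Cdx2, the caudal homeobox gene that marks the trophectoderm, was at 5.79 and 4.91 FPKM in Nanog-null ESC, 4.48 and 4.29 in G2 and 3.66 and 2.60 in G5. The 4 WT ESC samples held 2, 3, 1 and 1 fragments. WT iPSC 1 held 72 fragments (1.09 FPKM), and WT iPSC 2 and 3 held 0 and 1, where a count of 0 allows up to 3 fragments. WT iPSC 1 thus stood apart from the other 6 WT ESC and WT iPSC samples, but below each of the Nanog-null samples. The log2 change was 6.38 ± 0.50 (adjusted p = 7.6e-08) in ESC and 1.91 ± 0.41 (adjusted p = 0.00093) in iPSC by edgeR. Within AC the ratio of scaled fragments was 121 in ESC (exact 95% interval 51.6 to 373) and 3.56 in iPSC (2.80 to 4.59), where the only WT sample is WT iPSC 1.

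Plac1 is an X-linked gene of the trophoblast that is needed for normal growth of the placenta. It was at 25.3 and 20.2 FPKM in Nanog-null ESC, 14.1 and 15.3 in G2 and 21.7 and 21.1 in G5, which corresponds to 322 to 1081 fragments. WT ESC samples held 5, 0, 7 and 7 fragments, and WT iPSC samples held 7, 1 and 6. The groups did not overlap, and no WT sample, MEF and piPSC included, held more than 20 fragments. Plac1 changed on the log2 scale by 7.06 ± 0.43 (adjusted p = 2.3e-09) in ESC and 7.45 ± 0.54 (adjusted p = 1.5e-08) in iPSC by edgeR. Within AC the ratio was 242 in ESC (exact 95% interval 103 to 746) and 79.1 in iPSC (38.3 to 197), the latter against 7 fragments in WT iPSC 1 alone. These intervals cover counting error only.

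Hand1 encodes a bHLH factor of trophoblast giant cells that is also used in heart and extraembryonic mesoderm. In Nanog-null ESC it was at 0.647 and 0.689 FPKM (28 and 61 fragments), in G2 at 1.03 and 1.17 (69 and 45) and in G5 at 2.47 and 1.88 (112 and 85). WT ESC 1 and 2 held 6 and 5 fragments, and WT ESC 3 and 4 held 14 and 16. On the scale of CPM after TMM scaling (counts relative to library size), Nanog-null ESC had 1.25 and 1.28, and WT ESC had 0.219 and 0.227 in AC but 1.60 and 2.40 in JI. Nanog-null ESC thus lay above the WT ESC of the same batch and below those of JI. By edgeR with a batch term, Hand1 changed by 2.49 ± 0.33 on the log2 scale (adjusted p = 1.7e-05) in ESC and 4.66 ± 0.35 (adjusted p = 4.2e-08) in iPSC. Without the batch term the changes were 0.37 (adjusted p = 0.79) and 2.11 (adjusted p = 0.064), so both calls are lost when the batches are pooled without it. In the fit of batch AC alone both passed, at 2.46 and 4.68. Within AC the ratios were 5.74 (exact 95% interval 3.06 to 11.9) and 27.4 (9.30 to 134), the latter against 3 fragments in WT iPSC 1.

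The regulators of trophoblast stem cells split. Elf5, an ETS factor gene known for holding the stem cell state in trophoblast, stayed at or under 34 fragments in every sample. Nanog-null ESC held 6 and 14 fragments, G2 17 and 14 and G5 34 and 16, against 6, 4, 0 and 1 in WT ESC and 0 in all 3 WT iPSC samples. In ESC the log2 change of Elf5 was 0.50 ± 0.63 (adjusted p = 0.52) by edgeR. In iPSC the test called it higher (adjusted p = 0.00034). Within AC scaled fragments were at least 7.15-fold higher in Nanog-null iPSC than in WT iPSC 1, from a floor of 3 fragments over that sample. Without WT iPSC 1 the call was lost (adjusted p = 0.12).

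Eomes, a T-box gene of trophoblast stem cells and of the primitive streak, fell. It was at 1.26 and 1.31 FPKM in Nanog-null ESC, 1.56 and 1.59 in G2 and 1.94 and 1.74 in G5. WT ESC had 3.03 and 3.74 FPKM in AC and 2.00 and 2.25 in JI, and WT iPSC had 2.92 in AC and 2.09 and 1.84 in JI. All Nanog-null ESC samples lay below all WT ESC samples, and G5 overlapped the JI samples of WT iPSC. Eomes changed by -1.27 ± 0.18 on the log2 scale (adjusted p = 2.2e-05) in ESC and -0.86 ± 0.17 (adjusted p = 0.00049) in iPSC by edgeR. Without a batch term neither passed (adjusted p = 0.055 and 0.31). Markers of the primitive streak did not rise with the members: of 7 tested, 1 was called higher and 2 lower in Nanog-null ESC and 0 higher and 3 lower in Nanog-null iPSC, with summed levels of 2.29 to 2.65 FPKM in Nanog-null samples and 3.36 to 6.51 in WT ESC and WT iPSC.

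Tfap2c encodes AP-2 gamma, which works in trophoblast, in germ cells and in pluripotent cells, and it was high in WT ESC already. It was at 37.4 and 33.7 FPKM in Nanog-null ESC and at 31.3 and 31.8 in the AC samples of WT ESC, but at 15.7 and 14.7 in those of JI. Clone G2 had 16.2 and 16.02 FPKM, G5 18.7 and 16.1, and the WT iPSC 13.7, 13.0 and 15.0. In AC the ESC groups were thus high and the iPSC groups low, with or without Nanog. The log2 change was 0.34 ± 0.21 (adjusted p = 0.19) in ESC and -0.22 ± 0.23 (adjusted p = 0.41) in iPSC by edgeR. In iPSC the sign depended on the samples used: it turned to 0.27 (adjusted p = 0.014) when only those groups were fitted, and to -0.90 (adjusted p = 0.00044, called lower) without WT iPSC 1. Within AC the ratio of scaled fragments was 1.20 in iPSC (exact 95% interval 1.13 to 1.28) and 1.09 in ESC (1.05 to 1.14), intervals that cover counting error only.

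**Figure D2:**
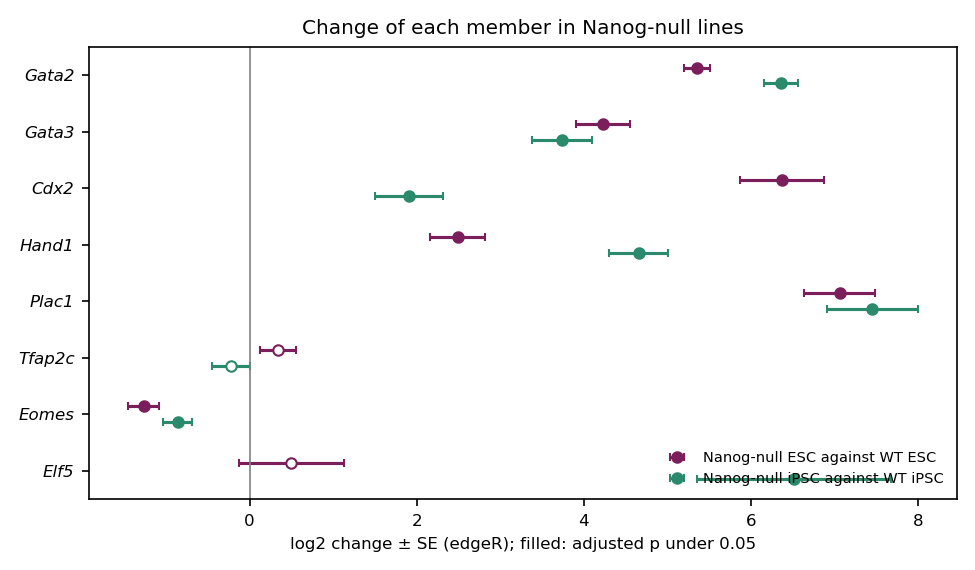
Log2 change with its standard error (edgeR, all 17 samples, batch term) of each of the 8 genes in Nanog-null ESC against WT ESC (purple) and Nanog-null iPSC against WT iPSC (green), filled where the adjusted p was under 0.05. Gata2, Gata3, Cdx2, Plac1 and Hand1 lie right of 0 in both, Eomes lies left of it, and the Elf5 change in iPSC of 6.52 ± 1.16 is set against WT samples that all hold 0 fragments.

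Among the Nanog-null lines 2 members were called. Between Nanog-null iPSC and Nanog-null ESC, Hand1 was higher by 1.11 ± 0.23 on the log2 scale (adjusted p = 0.0047) and Tfap2c fell by 1.12 ± 0.19 (adjusted p = 0.0015, edgeR). These are 1 of 8 members in each direction, where 7.15% of all genes were called higher, 6.85% lower and 14% in either direction. Hand1 lost its call when either Nanog-null ESC sample was left out (adjusted p = 0.067 and 0.094). Gata2 (0.00 ± 0.11), Cdx2 (-0.54 ± 0.26), Gata3 (-0.60 ± 0.22), Plac1 (-0.42 ± 0.23), Eomes (0.35 ± 0.17) and Elf5 (1.33 ± 0.44) did not pass, though Elf5 passed without the second G5 sample (adjusted p = 0.048). Between clones G5 and G2 edgeR called 0 of 8 members, where it called 2.13% of all genes higher, 3.67% lower and 5.8% in all. At an unadjusted p under 0.05 it had 3, and DESeq2 called 0 after adjustment and limma on log2(FPKM + 1) called 1, Hand1. With batch AC alone edgeR called 2 higher in G5 (Hand1 and Plac1) and 1 lower (Gata2), and with only these clones fitted it called 2 higher and 3 lower (Gata2, Gata3 and Cdx2 lower), so the count of 0 holds for the fit of all samples. Hand1 differed by 0.83 ± 0.24 (adjusted p = 0.062), and was higher in both G5 samples than in both G2 samples.

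The change from WT to Nanog-null lines in iPSC minus that in ESC is named the difference of effects here. Genotype cannot be told apart from line in it, nor from passage in ESC. It was called for 4 members, 3 higher (5.42% of all genes) and 1 lower (10.2%), where 15.6% of all genes were called in either direction. It was -4.47 ± 0.67 on the log2 scale for Cdx2 (adjusted p = 0.00076), 6.02 ± 1.44 for Elf5 (adjusted p = 0.015), 1.01 ± 0.22 for Gata2 (adjusted p = 0.0073) and 2.17 ± 0.38 for Hand1 (adjusted p = 0.0021), all by edgeR. The WT groups enter both changes too. Between WT iPSC and WT ESC, Cdx2 was called higher (3.93 ± 0.62, adjusted p = 0.0019, where 7.04% of all genes were) and Gata2 (-1.00 ± 0.19, adjusted p = 0.0057) and Hand1 (-1.06 ± 0.31, adjusted p = 0.047) lower, where 1.83% were and 8.88% in either direction. Without WT iPSC 1, the sample with 72 Cdx2 fragments, Cdx2 turned to -1.84 (adjusted p = 0.64) in WT iPSC against WT ESC and to 1.31 (adjusted p = 0.65) in the difference of effects. Gata2 then no longer passed in WT iPSC against WT ESC (-0.86, adjusted p = 0.32) or in the difference of effects (0.86, adjusted p = 0.14), and Elf5 no longer passed in the latter (5.02, adjusted p = 0.29), whereas Tfap2c came to pass there (-1.04, adjusted p = 0.0014). Hand1 kept its call there, and in WT iPSC against WT ESC it lost it without any 1 of 6 of the 7 samples, WT ESC 3 being the exception. Elf5 and Tfap2c did not pass between WT iPSC and WT ESC, but Elf5 passed without WT ESC 3 (adjusted p = 0.027), and Tfap2c passed without WT ESC 3, WT ESC 4 or WT iPSC 3 (adjusted p = 0.045, 0.024 and 0.028).

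WT piPSC and WT MEF served as cells without a full pluripotent programme. In piPSC the test called Elf5, Gata3 and Plac1 higher than in WT iPSC and Cdx2, Eomes, Tfap2c and Hand1 lower, where 28.4% of all genes were called higher, 40.4% lower and 68.8% in either direction. The piPSC levels of the first 3 were small, at most 0.718 FPKM for Gata3 (40 fragments), 20 fragments for Plac1 and 7 for Elf5. Each of these 3 calls was lost on leaving out a sample: Gata3 without either piPSC sample or either JI sample of WT iPSC (adjusted p 0.057 to 0.12), Plac1 without piPSC 1 (adjusted p = 0.076) and Elf5 without piPSC 2 or WT iPSC 1 (adjusted p = 0.056 and 0.27). Cdx2 was called lower on WT iPSC 1 alone, and without that sample its change was -0.49 (adjusted p = 0.84). Eomes was at 0.708 and 0.459 FPKM in piPSC and Tfap2c at 2.33 and 3.30, and Hand1 had 0 fragments in both samples. WT iPSC 1, of the same batch, held only 3 Hand1 fragments, so no ratio or bound was made within AC. The JI samples of WT iPSC held 10 and 19. The changes were -2.58 ± 0.22 for Eomes and -2.86 ± 0.27 for Tfap2c (adjusted p = 2.7e-08 and 2.6e-07, edgeR).

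Against WT ESC, WT MEF had higher Gata2 and Gata3 and lower Eomes, Tfap2c and Hand1, where 38.1% of all genes were called higher, 39.1% lower and 77.2% in either direction. Gata2 was at 3.85 and 4.32 FPKM in MEF, a log2 change of 2.72 ± 0.19 (adjusted p = 1.8e-09, edgeR), and each Nanog-null sample lay well above it. Gata3 changed by 2.71 ± 0.36 (adjusted p = 3.8e-06, edgeR), with MEF levels inside the range of the Nanog-null samples. Cdx2 and Elf5 had 0 fragments in both MEF samples, and Plac1 had 2 in each. Plac1 did not pass (adjusted p = 0.057), but did without WT ESC 2 (adjusted p = 0.0095). Tfap2c had 0 fragments in both MEF samples and was at least 397-fold lower than in the JI samples of WT ESC, from a floor of 3 fragments over the group.

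Fibroblast markers were also higher in Nanog-null lines. All 8 markers (Col1a1, Col1a2, Col3a1, Postn, Lum, Dcn, Thy1 and Twist2) were called higher in Nanog-null ESC and 7 in Nanog-null iPSC, and their summed level was 429 to 1142 FPKM in Nanog-null samples. It was 95.6 to 241 FPKM in WT ESC and WT iPSC and 3424 to 3473 in MEF. No marker was at 0 in any of these groups' means. Clone G5 had the lowest sum of the Nanog-null lines (429 and 431 FPKM) and G2 the highest (1071 and 1142). Gata2 in each Nanog-null sample was above its MEF level while the marker sum was below the MEF sum. Gata3 in MEF lay within its range in Nanog-null samples, and Cdx2, Plac1 and Elf5 were at or near 0 in MEF. The part of fibroblasts in the levels of the members was not tested.

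**Figure D3:**
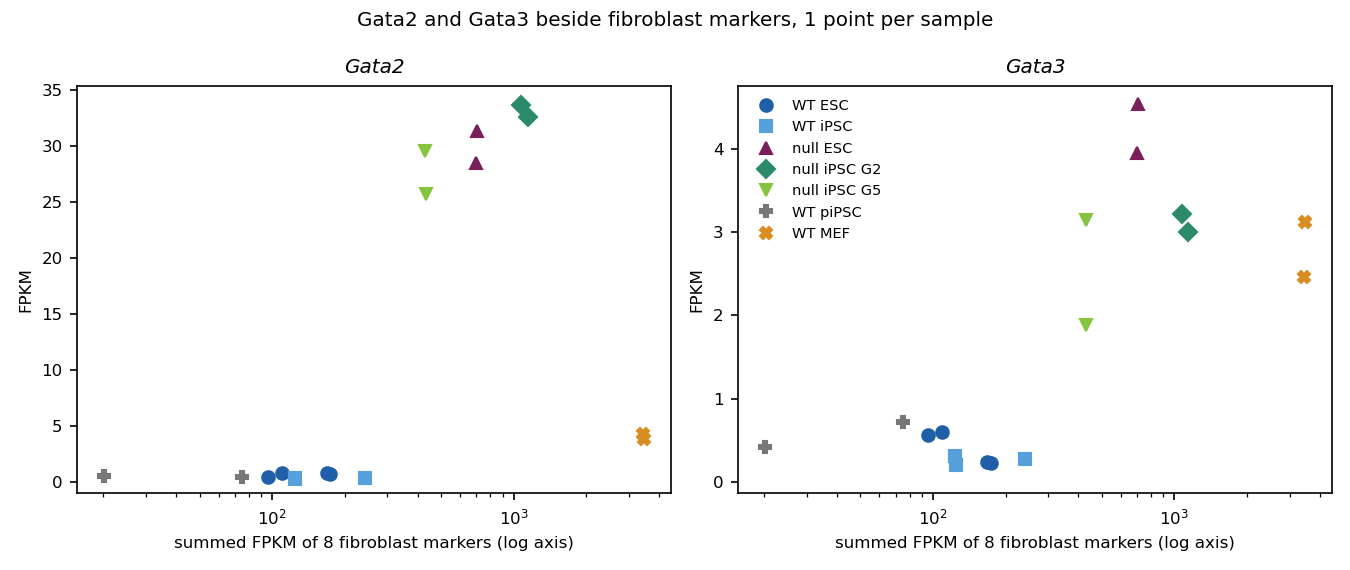
FPKM of Gata2 (left) and Gata3 (right) against the summed FPKM of 8 fibroblast markers (log axis), 1 point per sample, with a symbol per group. The Nanog-null samples lie far above WT MEF for Gata2 and beside it for Gata3.

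Primitive endoderm markers, of the other extraembryonic lineage, rose as well. All 10 were called higher in both comparisons, with a median log2 change of 4.85 in ESC and 4.21 in iPSC. Their summed level was 184 to 313 FPKM in Nanog-null samples, 21.5 to 41.2 in WT ESC and WT iPSC and 183 to 185 in MEF. Gata6, which encodes the GATA factor that starts primitive endoderm, rose from 0.240 to 0.773 FPKM across WT ESC and WT iPSC to 14.8 to 20.6 in Nanog-null iPSC. Its part in the levels of the members was not tested. Of 8 pluripotency markers 6 were called lower in each comparison, and Pou5f1 was among those that did not pass (log2 change -0.29, adjusted p = 0.10, and -0.32, adjusted p = 0.072). Of 6 markers of primordial germ cells, which also use Tfap2c, 0 were called higher and 5 lower in ESC, and 0 and 3 in iPSC.

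Other cells that use members of the set gave mixed counts. Of 6 markers of lateral and extraembryonic mesoderm, where Hand1 is used, 4 were called higher in ESC and 3 in iPSC, and 0 lower in either. Their summed level was 6.75 to 11.7 FPKM in Nanog-null samples and 1.64 to 3.83 in WT ESC and WT iPSC. Of 8 markers of blood and endothelium, where Gata2 is used, 3 were called higher and 3 lower in both comparisons, and the summed level was 9.49 to 12.8 FPKM in Nanog-null samples against 8.09 to 13.1. Of 7 markers of surface ectoderm, which uses Gata3, 4 were called higher and 0 lower in both (1 of the 7, Tfap2a, is also in the list of trophoblast regulators), with 9.03 to 11.5 against 3.15 to 6.13 FPKM. The part of such cells in the levels of the members was not tested.

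The wider trophoblast programme was read from lists that hold none of the 8 genes. Of 10 further regulators of trophectoderm and trophoblast stem cells 9 were tested. In Nanog-null ESC 6 were called higher and 1 lower, where 31.1% and 26% of all genes were. In Nanog-null iPSC 6 were called higher and 0 lower, where 28.4% and 31.1% of all genes were. The median log2 change was 2.03 in ESC and 2.07 in iPSC, beside 0.05 and -0.04 over all genes. In WT MEF against WT ESC 7 of the 9 were called higher and 1 lower, where 38.1% and 39.1% of all genes were. The median there was 1.65, so the list was raised in MEF as well. Id2, an inhibitor of bHLH factors, was at 76.0 FPKM in Nanog-null ESC against 5.88 in WT ESC of AC and 27.3 in those of JI, a log2 change of 3.99 ± 0.24 (adjusted p = 2.3e-09, edgeR). Fgfr2, the receptor through which FGF4 keeps trophoblast stem cells dividing, changed by 3.50 ± 0.19 in ESC and 2.85 ± 0.20 in iPSC. Bmp4, a ligand made by the extraembryonic ectoderm, changed by 2.82 ± 0.23 and 3.96 ± 0.25. In WT MEF against WT ESC Bmp4 changed by 2.86 ± 0.22 and Fgfr2 by 1.92 ± 0.19. Tfap2a changed by 2.19 ± 0.20 in ESC, and Sox21 by 2.19 ± 0.20 in iPSC. The mean of Tfap2a was 6.87 FPKM in WT piPSC, above 4.84 in Nanog-null ESC, 3.05 in G2 and 2.91 in G5. Ets2 was the 1 called lower in ESC (-0.31), and Tead4 and Klf5 passed in neither comparison (named after their values were seen). Esrrb was left out of the tests because of its status in the deposited tables. The summed level of all 10 regulators, Esrrb included, was 328 to 330 FPKM in Nanog-null ESC, 295 to 302 in G2 and 270 to 276 in G5. It was 126 to 297 FPKM in WT ESC, which overlaps G2 and G5, and 122 to 261 in WT iPSC.

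Of 22 genes of placental differentiation 16 were tested, and 14 were called higher in ESC and 15 in iPSC, with 0 lower in either. Of all genes 31.1% and 28.4% were called higher in these comparisons. Genes could pass the filter through the Nanog-null samples alone, and those near 0 in every sample were not tested. The list was also chosen with earlier results of these data known, so these counts describe it and do not test it. The median log2 change was 4.03 in ESC and 4.14 in iPSC. Gcm1, the gene that starts the syncytiotrophoblast, held 6 fragments over both AC samples of WT ESC and 1302 over both Nanog-null ESC samples, at 8.56 to 9.07 FPKM. Its log2 change was 7.45 ± 0.30 (adjusted p = 2.9e-11, edgeR) in ESC and 5.75 ± 0.35 in iPSC. Ascl2, a bHLH gene of the spongiotrophoblast, was at 26.5 FPKM on average in Nanog-null ESC and 11.1 in Nanog-null iPSC. WT ESC had 0.445 FPKM in AC and 5.76 in JI, and the log2 change in ESC was 5.25 ± 0.31.

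Nrk, an X-linked kinase gene of the spongiotrophoblast, rose from 0.297 to 1.21 FPKM over WT ESC and WT iPSC to 25.8 to 26.5 in Nanog-null ESC and 36.9 to 65.5 in Nanog-null iPSC. Rhox6 and Rhox9, homeobox genes of a placental cluster whose related copies may share reads, changed by 6.32 ± 0.25 and 6.25 ± 0.26 in iPSC, and Rhox6 by 4.69 ± 0.23 in ESC. Rhox6 was at 104 to 207 FPKM in Nanog-null iPSC, at 1.44 in WT iPSC 1 and at 25.8 and 27.0 in the JI samples of WT iPSC. The JI samples were thus higher than the AC sample but below all Nanog-null samples. Prl2c2 passed in neither comparison, and Plet1 only in iPSC (log2 change 1.40), both named after their values were seen.

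A further 5 genes of the list were near 0 in every sample. Tpbpa, the defining marker of spongiotrophoblast, held at most 5 fragments in any sample. Prl3d1 and Prl3b1, hormone genes of giant cells, held at most 1 and 2, and the cathepsin genes Ctsq and Ctsj at most 1 and 2. All 5 held 0 fragments in WT ESC, WT iPSC, piPSC and MEF, and none passed the filter, so they were not tested. Peg10, an imprinted gene of retrotransposon origin needed for the placenta, was left out of the tests because of its status. Its deposited level was 395 to 618 FPKM in Nanog-null samples and 3.63 to 7.12 in WT ESC and WT iPSC, values which its status makes uncertain.

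Of 12 genes of the trophectoderm epithelium 9 were called higher and 2 lower in ESC, where 31.1% and 26% of all genes were. In iPSC 10 were called higher and 0 lower, where 28.4% and 31.1% of all genes were. Their summed level was 940 to 969 FPKM in Nanog-null ESC, inside the 411 to 1026 of WT ESC. It was 1311 to 1397 FPKM in G2 and 2158 to 2376 in G5, above the 214 to 675 of WT iPSC. The 2 called lower, Aqp3 and Atp1b1, encode the water channel and a subunit of the sodium pump (named after their values were seen). Krt8 and Krt18, keratins of simple epithelia, changed by 5.25 ± 0.19 and 5.09 ± 0.24 in ESC and by 7.45 ± 0.22 and 7.29 ± 0.29 in iPSC. Krt18 stood at 6.85 FPKM in WT ESC of batch AC but at 390 in those of JI, above the 195 of Nanog-null ESC. In Nanog-null iPSC it ran from 340 to 751 FPKM, against 1.90 in WT iPSC 1 and 263 and 271 in the JI samples of WT iPSC. Against WT of JI, Krt18 was thus lower in Nanog-null ESC and higher in Nanog-null iPSC. Krt19 changed by 3.77 ± 0.38 in ESC and 5.54 ± 0.45 in iPSC, Lrp2 by 3.75 ± 0.33 in ESC and Krt7 by 5.58 ± 0.49 in iPSC, and their JI samples of WT ESC were likewise above those of AC.

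**Figure D4:**
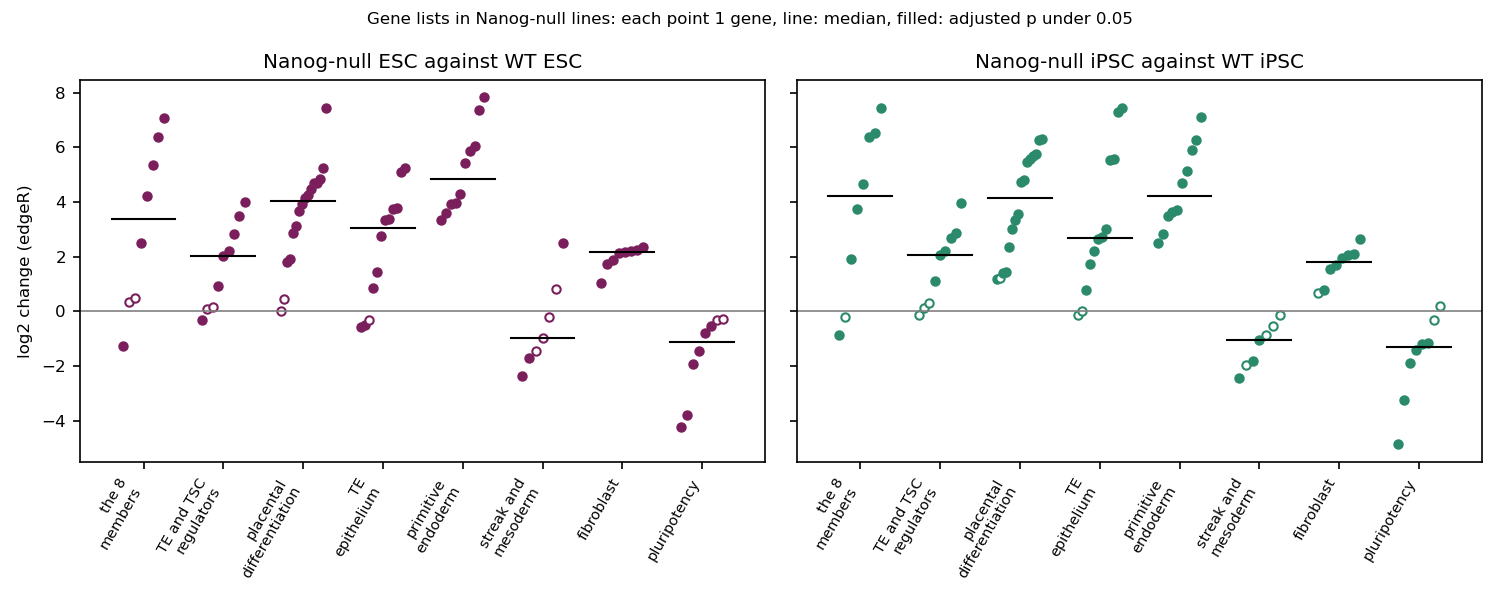
Log2 change (edgeR) of each tested gene in the 8 members, 3 trophoblast lists and 4 lists of other cell types in Nanog-null ESC against WT ESC (left) and Nanog-null iPSC against WT iPSC (right). Lines are list medians and filled points had an adjusted p under 0.05, and the lists of placental differentiation (medians 4.03 and 4.14) and primitive endoderm (4.85 and 4.21) lie highest among those other than the members.

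The genes whose levels ran most like those of a member over the 11 samples of batch AC were ranked by Pearson's r of log2(FPKM + 1) among 14335 genes. These samples share a batch and fall into Nanog-null and WT clusters, so r carries that split and is given as a description. Gata2 ran most like Aqp8, Gata6 and Tax1bp3 (r = 0.998), and Plac1 like Pgrmc1, Lgals1 and Hkdc1 (r = 0.99). Gata3 ran most like Leprel1, Arhgdib and Ppard (r = 0.99), and Cdx2 like Mcc, Nefm and Atp6v0a2 (r = 0.99). Hand1, which is highest in clone G5, ran most like Grhl1, Rhox12 and Nppb (r = 0.99). Eomes ran most like Aurkc, Arl15 and Mapkapk5 (r = 0.98), and Tfap2c like Fam132b, Myh13 and Srcrb4d (r = 0.98). Elf5 was not ranked, since its level reached 1 FPKM in only 1 sample of the batch.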

How the data were processed

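Estimated counts of fragments, a count scaled between libraries (a signal) and FPKM per gene were deposited by the authors for each of 17 samples, per the file headers. The tools were Cuffdiff 2.1.1, TopHat2 2.0.7, CASAVA and Bowtie2 2.0.5, per the submitters' processing notes, which also list NCBIM37 and mm10 but not what each served for. Titles gave the groups, and the prefixes of the sample codes gave the batches.

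The estimated counts were rounded to whole numbers and tested with edgeR 4.0.16 (TMM scaling, quasi-likelihood test) in R 4.3.3. The fit used all 17 samples, a term for each of 7 groups and 1 for batch, with 9 residual degrees of freedom. Genes needed 10 fragments in at least 2 samples, and 19 genes whose status was not OK were left out, which left 17587. Adjustment was by Benjamini and Hochberg over all of them, with a threshold of 0.05. FPKM shows levels, and its value per fragment varied between samples, up to 4.84 times for Elf5 and 3.33 times for Hand1, so fragments are given for low genes. In these units depth limits members under 1 FPKM.

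On simulated counts (17032 genes, Nanog-null ESC against WT ESC) the fit recovered 73.5% of genes changed 2-fold and 94.9% of those changed 4-fold, and called 13 of 16836 unchanged genes. The simulation gave each unchanged gene the same mean in all samples, with no batch or other group differences. It thus cannot show how the fit does under the batch differences of these data. No replicates were duplicates (chi-square per gene 1.58 to 32.4 for pairs within a batch, and 170 to 630 for pairs across batches). Replicate numbers do not pair samples, since the deviations of same-numbered samples correlated at -0.0437 to 0.0850 over 15 pairs of groups. The members and lists were chosen with earlier results of these data known. Members are always named. From the other lists up to 4 called genes with the largest changes and a group mean of at least 5 FPKM are named, as are defining markers. The 3 genes most alike are named for each member that reached 1 FPKM in at least 2 AC samples. DESeq2 1.42.0 and limma 3.58.1, with pseudocounts of 1 and 0.1, other scalings, filters and designs and leaving out each sample were alternatives.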

Additional observations from a re-analysis of the deposited data

Results flagged for a closer look

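The change from WT to Nanog-null lines differed between iPSC and ESC for 4 of the 8 genes by a test of the difference itself (edgeR, adjusted p under 0.05). Genotype cannot be told apart from line here, nor from passage in ESC. The difference, iPSC minus ESC, was -4.47 for Cdx2, 6.02 for Elf5, 1.01 for Gata2 and 2.17 for Hand1 on the log2 scale. Without WT iPSC 1 that of Cdx2 turned to 1.31 and those of Elf5 and Gata2 no longer passed. The Elf5 value is set against WT iPSC samples that all hold 0 fragments and is no bound. None of the 4 WT ESC samples stood apart by Dixon's test for any of the 8 genes, and groups of 3 or fewer samples were not tested in this way. The test looks only for a single sample at either end. It therefore cannot flag a split of the AC from the JI samples, as seen for Tfap2c and Hand1.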

How the results depend on the processing

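The alternatives were run on the 8 members and on the counts over all genes, not on the other lists. No called change of a member turned sign except that of Cdx2 without WT iPSC 1, given below, and Tfap2c in iPSC, not called at first, turned to 0.27 when only the groups compared were fitted. Cdx2 turned to 1.31 in the difference of effects and to -1.84 in WT iPSC against WT ESC. The cause was not tested. Leaving out 1 sample gave -4.77 to 1.31 and -1.84 to 4.23 for these. Gata2, Gata3, Cdx2 and Plac1 kept their calls in both Nanog-null comparisons under each alternative, and Hand1 and Eomes lost theirs without the batch term. The members called lower were then 0 in both comparisons, and on leaving out 1 sample they were 1 to 2 in iPSC (2 without WT iPSC 1).

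For Nanog-null iPSC against Nanog-null ESC the count called higher was 0 without a batch term, 2 in batch AC alone and 3 with only the groups compared. The count called lower was 2 without a filter, 0 without a batch term, 4 in AC alone and 4 with only the groups compared. Leaving out samples gave 0 to 2 higher. For G5 against G2 the count higher was 1 with a filter of 50 fragments, 1 with limma on log2(FPKM + 1), 2 in AC alone and 2 with only the groups compared, and the count lower was 1 and 3 in the last 2. For the difference of effects the count higher was 1 with limma at either pseudocount and 0 without a batch term, and 1 to 3 on leaving out samples. The count lower was 2 without a filter, 0 with limma at either pseudocount, 0 without a batch term and 2 in AC alone.

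For WT iPSC against WT ESC both counts were 0 with limma at either pseudocount, without a batch term and with only the groups compared, and leaving out samples gave 0 to 1 higher and 0 to 4 lower. For piPSC the count higher was 1 without a batch term, 1 in AC alone and 0 with only the groups compared, and 1 to 2 on leaving out samples. With the replicate numbers as a block, which do not pair these samples, 2 members were lower in Nanog-null iPSC than in Nanog-null ESC and 1 lower in WT iPSC than in WT ESC, and genes called in the latter went from 1561 to 2831.

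Over all genes, calls for Nanog-null ESC against WT ESC fell from 10032 to 5414 without a batch term. For the difference of effects they went from 2744 to 1686 and 1269 (limma), 2 (no batch term) and 7722 (AC alone). For Nanog-null iPSC against Nanog-null ESC they went from 2463 to 1122 (limma, pseudocount 0.1), 12, 5764 and 7763 (only the groups compared). For G5 against G2 they went from 1020 to 449, 5, 3490 and 5513 in the same order. For WT iPSC against WT ESC they went from 1561 to 2348 (no filter), 156 and 64 (limma), 0, 7596 and 7. Leaving out 1 sample gave 43 (without WT iPSC 1) to 3787 in this comparison, 1027 to 4603 for the difference of effects, 587 to 1589 for Nanog-null iPSC against Nanog-null ESC and 270 to 338 for the clones. In WT iPSC against WT ESC 79.4% of calls were higher, and 69.0% with RLE scaling. In the piPSC comparison the median over all genes was -0.22 with TMM and -0.14 with RLE. Elf5 gave no value with a filter of 50 fragments or with limma, and where a group compared held too few fragments alone no value was made.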
